A study of Mus musculus with 6 samples.

Results

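The genes described here are 10 enzymes that build, desaturate and lengthen fatty acids outside mitochondria: Acaca, Fasn, Scd1, Scd2, Fads1, Fads2, Elovl1, Elovl5, Elovl6 and Hacd2. They were taken by symbol, with earlier results of these data known, and all 10 were found among the 56691 genes of the count files and passed the filter on low counts. The study modelled chronic kidney disease in C57BL/6 male mice that received 4 injections into the abdominal cavity, beginning at 9 weeks of age. The treated animals were 3 mice given cisplatin, a platinum chemotherapy drug that injures the kidney, at 8 mg/kg per injection, and the controls were 3 mice given saline. Total RNA of the kidney was sequenced at week 7, with 1 stranded library per mouse, so the replicates are separate animals. Whole kidney holds many cell types, and in such bulk RNA fewer cells of a type and less RNA per cell cannot be told apart.

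Fatty acid synthesis starts in the cytosol, where acetyl-CoA carboxylase 1 (Acaca) makes malonyl-CoA from acetyl-CoA and fatty acid synthase (Fasn) adds its carbons to a growing chain until palmitate is released. Enzymes in the membrane of the endoplasmic reticulum then change the chain. Stearoyl-CoA desaturases (Scd1, Scd2) place the first double bond of monounsaturated fatty acids, the front-end desaturases Fads1 and Fads2 act on polyunsaturated chains, the elongases (Elovl1, Elovl5, Elovl6) carry out the condensing step of elongation, and Hacd2 removes water in a later step of the same cycle. The proximal tubule draws much of its energy from burning fatty acids, and lipid in tubule cells is a known feature of kidney injury.

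The sequences upstream of Hacd2 and Elovl6 are shown because both genes changed after cisplatin, in opposite directions, and their RefSeq promoters lie at the gene start of the annotation used here. They are the bases before the RefSeq start site, read from a RefSeq promoter table of GRCm38.p6, and each matched GRCm39 at exactly 1 place on its chromosome. For Elovl6 the stretch stops at the gene start in GENCODE vM39, which leaves 219 of the 250 bases.
Hacd2, GRCm39 chr16:34842541-34842790, plus strand: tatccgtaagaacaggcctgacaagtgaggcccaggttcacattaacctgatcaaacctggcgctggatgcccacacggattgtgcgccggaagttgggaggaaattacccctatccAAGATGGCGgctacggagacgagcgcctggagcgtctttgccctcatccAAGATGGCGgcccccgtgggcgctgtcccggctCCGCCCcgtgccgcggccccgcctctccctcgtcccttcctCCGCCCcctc
Elovl6, GRCm39 chr3:129325785-129326003, plus strand: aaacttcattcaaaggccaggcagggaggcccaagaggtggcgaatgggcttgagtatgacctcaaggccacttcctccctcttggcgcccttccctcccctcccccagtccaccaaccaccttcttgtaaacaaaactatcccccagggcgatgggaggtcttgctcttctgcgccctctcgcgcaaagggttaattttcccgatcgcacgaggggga
Capitals mark every match, on either strand, to the letters of 5 motifs: the E-box CACGTG, the CCAAT box CCAAT, the GC box GGGCGG, a short form of the sterol regulatory element TCACNCCAC and the YY1 motif AAGATGGCG. The last was added after the Hacd2 sequence had been seen. Hacd2 held 2 GC boxes, starting 51 and 10 bases before the start site, and 2 YY1 motifs, starting 133 and 84 bases before it, and none of these overlapped. Of 32851 promoters of 250 bases, 32.7% held a GC box and 0.606% a YY1 motif. Elovl6 held none of the 5 motifs in its 250 bases.
Of the other members in the table, Fasn held 3 CCAAT boxes, 2 of them overlapping, Elovl5 held 2 CCAAT boxes and an E-box, and Fads2 held 1 GC box. A CCAAT box was found in 33.8% of all promoters and an E-box in 6.02%. Both Elovl1 promoters held GC boxes, 1 of them also a CCAAT box that shares bases with a GC box, and Acaca held none of the motifs. The sterol regulatory element, found in 1.05% of promoters, was in none of the members' windows. The windows follow the RefSeq start, which lies downstream of the GENCODE gene start by 336 bases for Fads2, 622 for Fasn, 944 and 2552 for Elovl1, 6534 for Elovl5 and 65788 for Acaca. Scd1, Scd2 and Fads1 have no entry in the table. A match of letters is a description of the sequence and was not tested for binding.

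Counted read pairs per library numbered 21891855 to 25356523 in cisplatin kidneys and 24111688 to 26627554 in control kidneys. Levels are given as CPM, counts scaled to the library size multiplied by the factor of the trimmed mean of M-values (TMM), and counts were tested with edgeR's quasi-likelihood test with Benjamini-Hochberg adjustment over all 15662 genes that passed the filter, at a threshold of 0.05. The TMM factors were 1.05 to 1.26 in cisplatin kidneys and 0.844 to 0.894 in control kidneys. Cisplatin libraries differed among themselves more than control libraries did, with a chi-square per gene between pairs of replicates of 13.2 to 40.5, against 4.96 to 7.19. Of the tissue markers, 15 of 16 proximal tubule genes were lower after cisplatin, and their summed level was 6006 to 6287 CPM in cisplatin kidneys, against 35316 to 35909 CPM in control kidneys, of which Kap made up 4.55% in cisplatin kidneys and 59.4% in control kidneys. Without Kap the sum was 5843 to 5909 CPM in cisplatin kidneys and 13705 to 15171 CPM in control kidneys. Macrophage markers were higher for 8 of 9 genes, with sums of 285 to 343 CPM in cisplatin kidneys and 99.2 to 122 CPM in control kidneys, and fibroblast markers for 5 of 6, with sums of 307 to 533 CPM in cisplatin kidneys and 150 to 190 CPM in control kidneys. Among all tested genes 22.8% were lower and 24.5% higher. With libraries scaled by their totals in place of TMM, 11 of the proximal tubule markers were lower and 1 was higher. With that scaling all 9 macrophage and all 6 fibroblast markers were higher. The part of these shifts in markers in the results on the 10 enzymes was not tested.

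The members did not move as a block. Scd1 rose 1.93-fold, Scd2 2.12-fold and Elovl6 2.04-fold, Hacd2 fell to 36.6% and Fads2 to 59.6% of the control level, and Acaca, Fasn, Fads1, Elovl1 and Elovl5 did not pass the test. Thus 2 members fell and 3 rose, in a comparison where 22.8% of all tested genes were called lower and 24.5% higher, so neither share of the 10 members stood far from that of all genes. The cisplatin and control libraries did not overlap for the same 5 genes, 2 lower and 3 higher, while among all tested genes 27.6% were lower and 30.2% higher without overlap. The median log2 fold change of the members was -0.05, and that of all tested genes was 0.05. Where libraries were scaled by their totals in place of TMM, the median of all tested genes was 0.48, and Fads1 and Elovl5 passed as higher with log2 fold changes of 0.56 and 0.51. Relative to that median they lay at 0.08 and 0.04, against 0.07 and 0.04 with TMM, and the 2 falls and 3 rises kept their direction and their call.

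**Figure D1:**
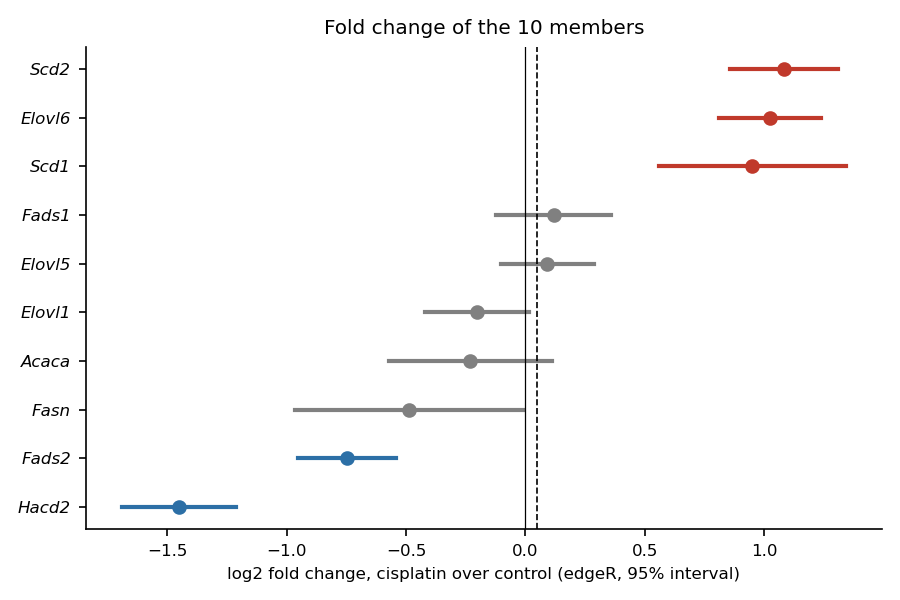
Log2 fold change of each member, cisplatin over control (dots), with the 95% interval from the edgeR fit (bars); red marks genes called higher, blue genes called lower, grey genes that did not pass, the solid line 0 and the dashed line the median of all tested genes. Scd2, Elovl6 and Scd1 lie at 0.95 to 1.08, Fads2 at -0.75 and Hacd2 at -1.45, and the other 5 lie between them.

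Of the 2 enzymes that make palmitate, Acaca is the step that commits acetyl-CoA to fatty acid synthesis. Acaca (GRCm39 chr11:84020476-84292477, plus strand) had 24.1, 17.0 and 17.4 CPM in cisplatin kidneys, against 22.2, 26.9 and 19.6 CPM in control kidneys. Its libraries overlapped between the groups, with the first cisplatin library above 2 of the 3 control libraries. The difference amounted to -0.23 on the log2 scale (standard error 0.154, 95% interval -0.57 to 0.11) and an edgeR adjusted p of 0.241.

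Fasn (GRCm39 chr11:120696672-120715995, minus strand) carries out all steps from malonyl-CoA to palmitate on 1 protein. It had 50.6, 35.5 and 26.5 CPM in cisplatin kidneys and 54.2, 63.8 and 40.4 CPM in control kidneys. The groups overlapped, and Fasn had the widest spread of the members in cisplatin kidneys, with the highest library at 1.91 times the lowest. The mean was 37.5 ± 12.2 CPM in cisplatin kidneys and 52.8 ± 11.8 CPM in control kidneys (SD, n = 3 each). The log2 fold change of -0.49 (standard error 0.216, 95% interval -0.97 to -0.01) had an edgeR adjusted p of 0.0852. Without the first cisplatin library it was -0.76 with an adjusted p of 0.00654, and without the third control library it was -0.66 with an adjusted p of 0.037. Without the third cisplatin library it was -0.33 (adjusted p = 0.139), and without the second control library it was -0.34 (adjusted p = 0.276). With libraries scaled by their totals it was -0.04, with an edgeR adjusted p of 0.91.

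Fasn was also read beside 2 markers of white fat, a tissue that surrounds the kidney and makes fatty acids, which were picked from a list of 8 after their values had been seen. Cfd, which encodes adipsin, had 11.0, 1.21 and 0.96 CPM in cisplatin kidneys and 5.59, 7.06 and 1.20 CPM in control kidneys. Adipoq, which encodes the hormone adiponectin, had 1.17, 0 and 0.39 CPM in cisplatin kidneys and 1.85, 1.46 and 0.24 CPM in control kidneys. These Adipoq values rest on only 0 to 44 counts per library. In both groups the library with the least Cfd was also the one with the least Fasn. The first cisplatin library and the first and second control libraries held the most of both markers, and the same 3 libraries held the most Fasn and the most Acaca.
Over the list of 8 white fat markers the sum was 42.8, 15.5 and 22.3 CPM in cisplatin kidneys and 65.2, 58.2 and 40.7 CPM in control kidneys. Of the 6 markers that could be tested, Fabp4 and Car3 were lower, both of which cells other than fat cells also express, and Adipoq, Plin1, Cidec and Cfd did not pass. Among all tested genes 22.8% were lower. With library totals 1 of the 6 markers was lower. Not all markers had the order of Fasn. Fabp4, the most abundant of the list, was lowest among control kidneys in the second library, where Fasn was highest. Among cisplatin kidneys Fabp4, Car3, Adipoq, Cidec, Retn and the sum were lowest in CPM in the second library. Only Cfd and Plin1 were lowest in the third, where Fasn was lowest. Lep was at 0 counts in every library. The part of fat tissue in the levels of Fasn and Acaca was not tested.

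**Figure D2:**
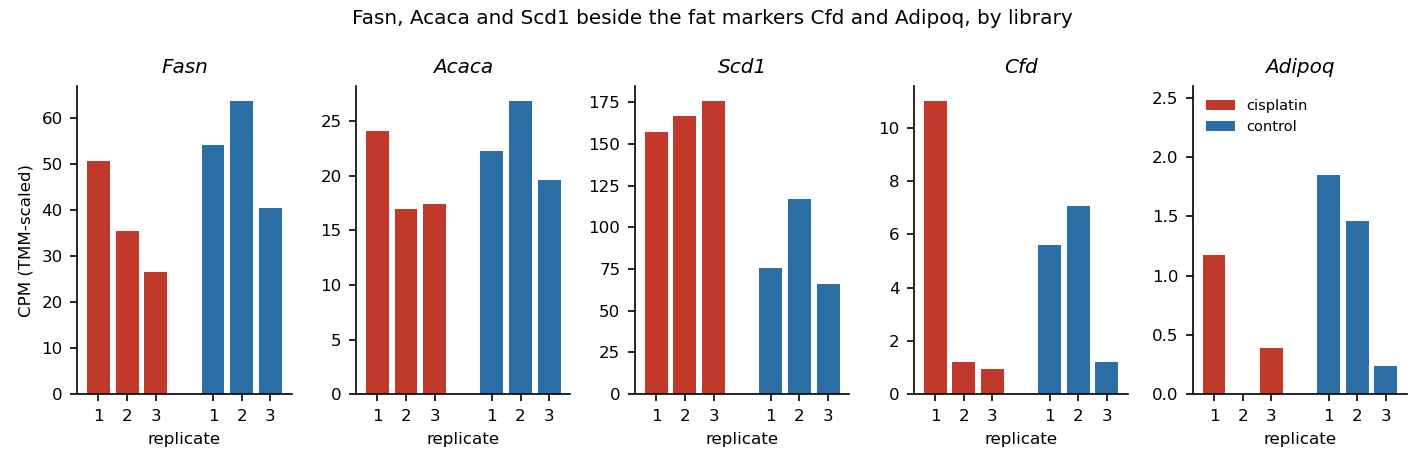
CPM of Fasn, Acaca and Scd1 and of the white fat markers Cfd and Adipoq in each library (bars), cisplatin in red and control in blue, by replicate number. Fasn, Acaca, Cfd and Adipoq stand highest in the first cisplatin library and in the first and second control libraries, while Scd1 lies above every control library in all cisplatin libraries.

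Among the desaturases both stearoyl-CoA desaturases rose. Scd1 (GRCm39 chr19:44382894-44399154, minus strand), which makes oleate and palmitoleate from saturated chains, had 157, 167 and 176 CPM in cisplatin kidneys, against 75.4, 117 and 66.2 CPM in control kidneys. No control library reached the lowest cisplatin library, and the control libraries were the less even, with the second at 1.77 times the third. The log2 fold change was 0.95 (standard error 0.177), which is 1.93-fold with a 95% interval of 1.47 to 2.54, and the edgeR adjusted p was 0.0013. In a test against a change of 1.5-fold Scd1 no longer passed, with an edgeR adjusted p of 0.0518.

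Scd2 (GRCm39 chr19:44281613-44295303, plus strand) catalyses the same reaction and lies on the same chromosome. It had 122, 110 and 98.9 CPM in cisplatin kidneys, against 47.4, 53.7 and 54.7 CPM in control kidneys. The groups were well apart, with the lowest cisplatin library above the highest control library. This gave a log2 fold change of 1.08 (standard error 0.102), or 2.12-fold with a 95% interval of 1.81 to 2.48, and the edgeR adjusted p was 1.3e-05. Within cisplatin kidneys the library lowest in Scd1 CPM was the highest in Scd2 CPM, and the reverse. This order depended on the scale. As TPM, which scale counts to exon length and to the library but not by TMM, it was not seen. There Scd1 had 55.3, 53.1 and 47.6 and Scd2 had 41.1, 33.5 and 25.6 in the cisplatin libraries.
The other stearoyl-CoA desaturases were barely detected. Scd3 had 0 counts in every cisplatin library and at most 1 count in a control library. Scd4 had 18 counts at most in a cisplatin library and 2 at most in a control library, and neither passed the filter.

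Scd1 and Scd2 together made up 49.0% to 50.6% of the summed CPM of the members in cisplatin kidneys, against 26.0% to 30.8% in control kidneys. Their sum was 277 ± 2.18 CPM in cisplatin kidneys and 138 ± 28.2 CPM in control kidneys (SD, n = 3 each). As a share of summed TPM, which scale counts to exon length and to the library but not by TMM, the pair made up 47.2% to 48.6% in cisplatin kidneys and 24.8% to 29.9% in control kidneys, so the share was apart between the groups on either scale. The sum of the 8 other members depended on the scale, with 282 ± 12.1 CPM in cisplatin kidneys and 357 ± 24.3 CPM in control kidneys, but 92.7 ± 13.6 TPM in cisplatin kidneys and 86.6 ± 5.03 TPM in control kidneys. The sum of all 10 overlapped in CPM, at 543 to 570 in cisplatin kidneys and 458 to 555 in control kidneys, and did not in TPM, at 151 to 200.03 in cisplatin kidneys and 108 to 129 in control kidneys.

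The front-end desaturases lie next to each other on chromosome 19 and parted. Fads2 (GRCm39 chr19:10038130-10079203, minus strand), which encodes the delta-6 desaturase that opens the route to long polyunsaturated fatty acids, had 61.5, 69.6 and 63.1 CPM in cisplatin kidneys, against 108, 118 and 101 CPM in control kidneys. All cisplatin libraries lay below all control libraries. Fads2 changed by -0.75 on the log2 scale (standard error 0.0934, 95% interval -0.95 to -0.54), with an edgeR adjusted p of 9.14e-05. In the test against a change of 1.5-fold the adjusted p was 0.0859.
Fads1 (GRCm39 chr19:10160167-10174241, plus strand), the delta-5 desaturase that acts later in the same route, had 43.0, 41.2 and 32.9 CPM in cisplatin kidneys and 33.8, 37.9 and 36.3 CPM in control kidneys. These values overlapped, with the third cisplatin library below every control library. For Fads1 the log2 fold change was 0.12 (standard error 0.109, 95% interval -0.12 to 0.36) and the edgeR adjusted p was 0.391.

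**Figure D3:**
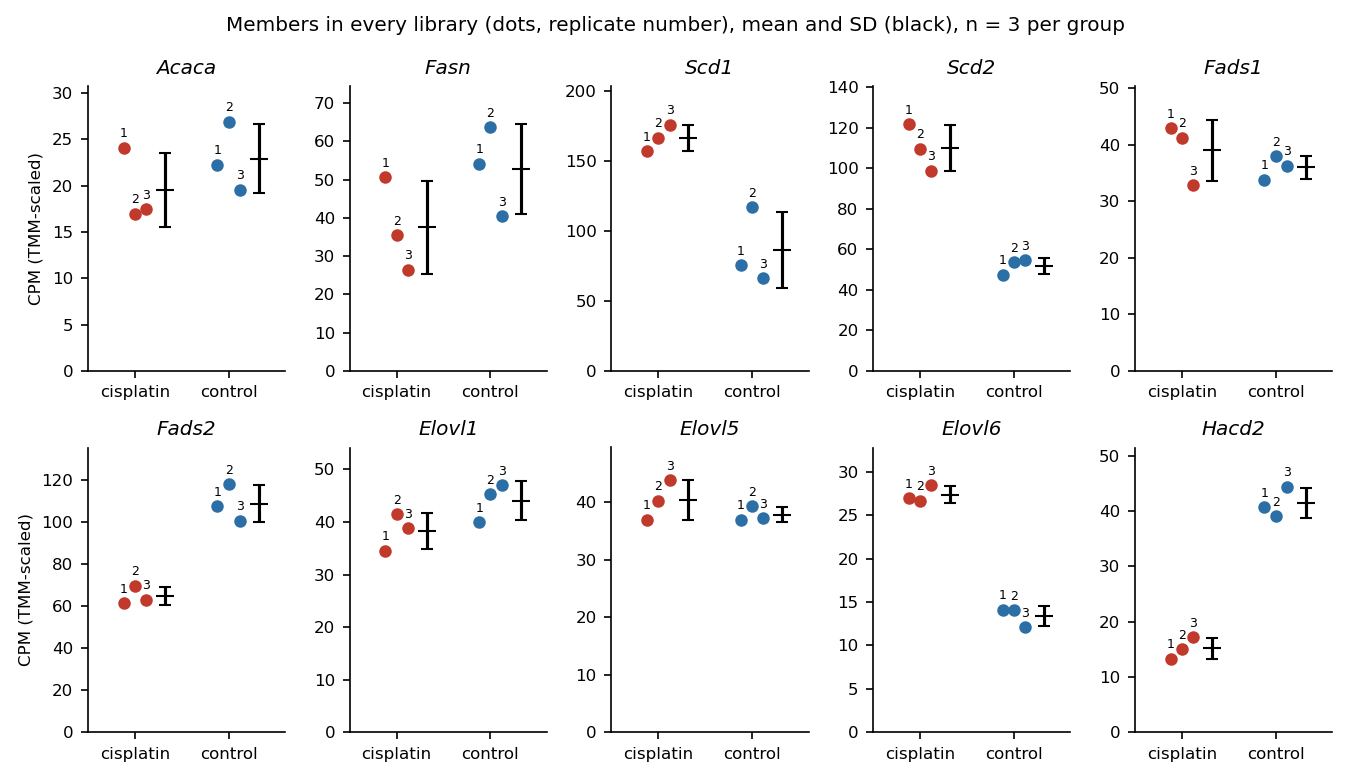
CPM of the 10 members in every library (dots, numbered by replicate; cisplatin red, left, control blue, right), with the mean and SD of 3 libraries in black and each axis starting at 0. The groups are apart for Scd1, Scd2 and Elovl6, which were higher after cisplatin, and for Fads2 and Hacd2, which were lower, and overlap in the other 5 panels.

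The 3 elongases differ in the chains they accept, and only Elovl6 passed the test. Elovl6 (GRCm39 chr3:129326004-129432144, plus strand), which lengthens palmitate to stearate, had 27.0, 26.6 and 28.4 CPM in cisplatin kidneys, against 14.1, 14.1 and 12.1 CPM in control kidneys. The groups did not overlap, and the cisplatin libraries were within 1.07 times of each other. The log2 fold change was 1.03 (standard error 0.0963), or 2.04-fold with a 95% interval of 1.76 to 2.36, and the edgeR adjusted p was 1.27e-05. Stearate, the product of Elovl6, is a substrate of the stearoyl-CoA desaturases, which rose as well.

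Elovl5 (GRCm39 chr9:77818113-77891802, plus strand), which lengthens polyunsaturated chains between the steps of Fads2 and Fads1, had 37.0, 40.2 and 43.8 CPM in cisplatin kidneys and 37.0, 39.3 and 37.3 CPM in control kidneys. The groups overlapped, and the log2 fold change was 0.09 (standard error 0.0886, 95% interval -0.10 to 0.29, edgeR adjusted p = 0.414). Elovl1 (GRCm39 chr4:118284346-118290150, plus strand), which lengthens saturated and monounsaturated very long chains, had 34.5, 41.5 and 38.8 CPM in cisplatin kidneys and 39.9, 45.2 and 46.9 CPM in control kidneys. Its second cisplatin library lay above the lowest control library. The log2 fold change was -0.20 (standard error 0.0986, 95% interval -0.42 to 0.02) and the edgeR adjusted p was 0.116. For both genes this interval, from the fit with TMM, leaves out a change of 1.5-fold in either direction. With library totals the log2 fold change was 0.51 for Elovl5 (edgeR adjusted p = 0.000773) and 0.22 for Elovl1 (adjusted p = 0.0704).

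Hacd2 (GRCm39 chr16:34842791-34930429, plus strand), a 3-hydroxyacyl-CoA dehydratase of the elongation cycle, had the largest change of the members. It had 13.3, 15.1 and 17.2 CPM in cisplatin kidneys, against 40.7, 39.1 and 44.4 CPM in control kidneys. The highest cisplatin library was far below the lowest control library. Its log2 fold change was -1.45 (standard error 0.109), or 0.366-fold with a 95% interval of 0.310 to 0.432, and the edgeR adjusted p was 2.73e-06. The direction and the call of Hacd2, Scd2 and Elovl6 were the same under all 18 alternative settings.

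Several members share exon bases with other genes of the annotation. Acaca does so with Tada2a, Elovl1 with Cdc20, Hacd2 with Gm21691, Elovl6 with Gm35986 and Fads1 with Gm59251 and Gm59252, all on the opposite strand, and the counts used keep the strand. Scd2 shares exon bases with the miRNA gene Mir5114 on its own strand, which had 0 counts in every library, and pairs there could not be told apart by strand. The opposite strand held at most 0.646% of the summed counts of both strands at any member. Between 11.5% and 12.9% of pairs in a library mapped to several places, and how many of them came from the members was not measured.

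Levels of different genes were compared as TPM within each group. In cisplatin kidneys Scd1 led with 52.0 ± 3.96 TPM, followed by Scd2 with 33.4 ± 7.72 TPM and Fads2 with 22.4 ± 3.09 TPM (SD, n = 3 each). Elovl5, Fads1 (15.9 TPM) and Elovl1 (15.9 TPM) followed with overlapping libraries, then Fasn and Elovl6, which overlapped at 7.45 and 7.27 TPM, then Hacd2 at 5.31 TPM and Acaca at 2.43 TPM.
In control kidneys Fads2 led with 27.9 ± 2.61 TPM and overlapped with Scd1 at 20.03 ± 6.15 TPM, followed by Elovl1 at 13.6 TPM. Scd2, Elovl5, Hacd2 and Fads1 came next with means of 10.8 to 11.5 TPM, and each overlapped with its neighbour in that order. Fasn had 7.58 TPM, and Elovl6 and Acaca came last with overlapping libraries and means of 2.66 and 2.09 TPM. Hacd2 thus had rank 9 in cisplatin kidneys and rank 6 in control kidneys, and Scd2 had rank 2 in cisplatin kidneys and rank 4 in control kidneys. With the length of the canonical transcript in place of all exons, Scd1 also came first in cisplatin kidneys and Fads2 first in control kidneys, while Elovl1 moved to the third place in cisplatin kidneys and the second in control kidneys.

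Ratios of 2 members within a library do not depend on the scaling between libraries, and 6 pairs were compared. Fads1 to Fads2, the later over the earlier desaturase, was 0.61 to 0.82 in cisplatin kidneys and 0.37 to 0.42 in control kidneys, as counts per kilobase. Elovl6 to Elovl5 was 0.43 to 0.49 in cisplatin kidneys and 0.22 to 0.26 in control kidneys. Scd1 to Fasn was 5.05 to 10.8 in cisplatin kidneys and 2.26 to 2.98 in control kidneys. In these 3 pairs every cisplatin library was higher than every control library, with differences of the mean log2 ratio of 0.86, 0.94 and 1.51.
Elovl1 to Elovl5 was 0.93 to 1.08 in cisplatin kidneys and 1.13 to 1.32 in control kidneys, a difference of -0.29 without overlap. Acaca to Fasn (0.30 to 0.42 in cisplatin kidneys, 0.26 to 0.31 in control kidneys) and Scd1 to Scd2 (1.35 to 1.86 in cisplatin kidneys, 1.26 to 2.27 in control kidneys) overlapped between the groups. The two-sided exact permutation p was 0.1 for each of the 4 pairs without overlap, the smallest that 3 against 3 allows, and 0.15 after adjustment over the 6 pairs. It was 0.3 for Acaca to Fasn and 0.9 for Scd1 to Scd2. No pair could therefore pass a threshold of 0.05 in this design.

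**Figure D4:**
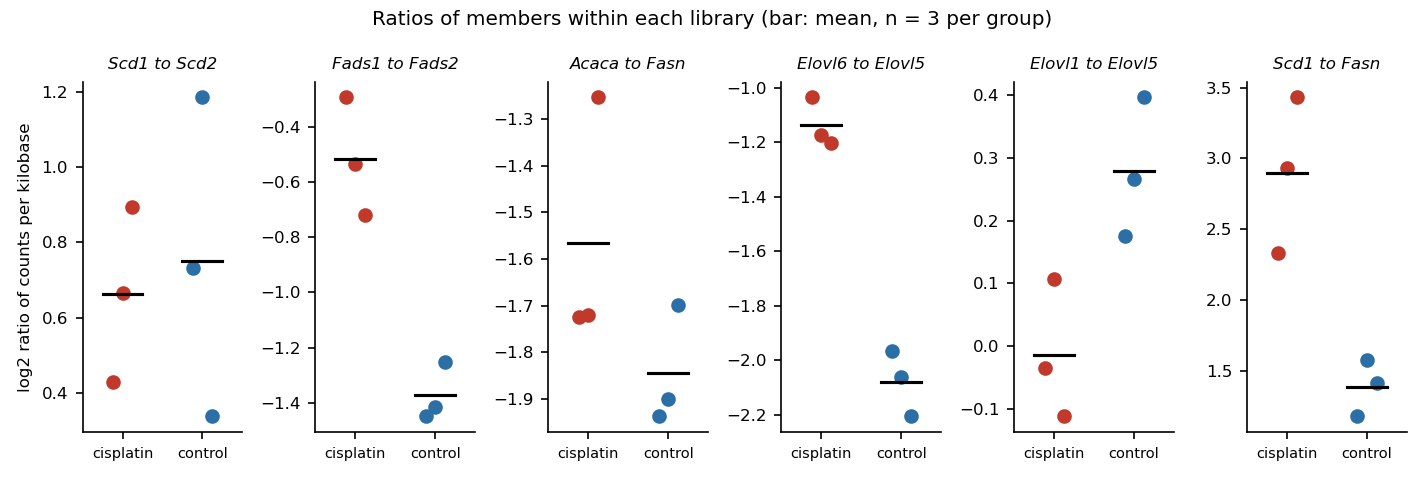
Log2 ratio of counts per kilobase of 2 members within each library (dots; cisplatin red, left, control blue, right; bar, mean of 3), for the 6 pairs compared, each panel with its own axis. Fads1 to Fads2, Elovl6 to Elovl5 and Scd1 to Fasn are higher in all cisplatin libraries, Elovl1 to Elovl5 is lower, and the other 2 pairs overlap.

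Other genes of the pathway were read from lists drawn up by function. Of the list of other desaturases, elongation enzymes and carboxylase genes, 16 of 20 could be tested, of which 9 were lower (56.25%) and 2 higher (12.5%). The shares over all tested genes were 22.8% lower and 24.5% higher. The median change of the list was -0.32 on the log2 scale. When scaled by library totals, 4 were lower and 6 higher, with a median of 0.10. The enzymes that share Hacd2's reaction moved in different directions. Hacd3 fell with a log2 fold change of -0.54 (edgeR adjusted p = 0.00151) and Hacd4 rose with 0.67 (adjusted p = 0.000529), while Hacd1 had 0.08 (adjusted p = 0.709). With library totals Hacd3 had -0.12 (adjusted p = 0.239) and no longer passed, and Hacd1 passed as higher with 0.50 (adjusted p = 0.0184).
Per length, Hacd2 made up 28.5% to 29.7% of the 4 Hacd transcripts in cisplatin kidneys, against 48.7% to 52.9% in control kidneys. Hacd4 made up 18.6% to 22.4% in cisplatin kidneys, against 7.34% to 9.22% in control kidneys. These shares depend on the length used, since over the canonical transcripts Hacd2 made up 13.9% to 14.7% in cisplatin kidneys and 27.6% to 30.9% in control kidneys, again without overlap.

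The remaining steps of the elongation cycle changed less than Hacd2. Hsd17b12, the ketoacyl reductase, fell with a log2 fold change of -0.42 (edgeR adjusted p = 0.00316), and Tecr, the enoyl reductase that ends the cycle, had -0.19 (adjusted p = 0.133) and passed without the third cisplatin library (-0.27, adjusted p = 0.0318). The fall of Hsd17b12 was gone with library totals, where its edgeR adjusted p was 0.996. With the same scaling Tecr passed as higher, with 0.23 (adjusted p = 0.029). Elovl7, an elongase of saturated chains, fell with -0.26 (adjusted p = 0.0239), a sign that turned to 0.16 with library totals. It did not pass without the second cisplatin library or without any 1 of the 3 control libraries (adjusted p 0.0541 to 0.1). Elovl6 made up 10.6% to 11.5% of the summed TPM of the 7 elongases in cisplatin kidneys, against 4.57% to 5.66% in control kidneys. Fads3, a relative of Fads1 and Fads2, fell with -0.88 (adjusted p = 9.29e-06), and Cyb5a, the cytochrome b5 that passes electrons to the desaturases, fell with -1.37 (adjusted p = 2.14e-05).
Genes around acetyl-CoA carboxylase also parted. Acacb, whose malonyl-CoA acts at mitochondria, had a log2 fold change of -0.28 (edgeR adjusted p = 0.245) and passed without the first cisplatin library (-0.50, adjusted p = 0.0246), Mlycd, which breaks down malonyl-CoA, fell with -0.86 (adjusted p = 5.4e-05), and Mid1ip1, which promotes the assembly of acetyl-CoA carboxylase into filaments, rose with 0.64 (adjusted p = 0.000648).

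The supply of acetyl-CoA and NADPH held the largest falls of the listed pathway genes, those of Me1 and Acss2. Of 7 tested genes 3 fell (42.9%) and 2 rose (28.6%), with the median at -0.22 on the log2 scale. Among all tested genes 22.8% were lower and 24.5% higher. With library totals 2 of the 7 were lower and 3 higher, and the median was 0.21. Me1, the cytosolic malic enzyme that makes NADPH, had 48.2, 44.2 and 46.5 CPM in cisplatin kidneys, against 235, 240 and 206 CPM in control kidneys. Acss2, which makes acetyl-CoA from acetate, had 55.0, 54.8 and 68.1 CPM in cisplatin kidneys, against 239, 249 and 233 CPM in control kidneys. Both genes were far lower in every cisplatin library, with log2 fold changes of -2.29 (edgeR adjusted p = 6.22e-08) and -2.02 (adjusted p = 2.47e-07).
Acly, which makes cytosolic acetyl-CoA from citrate, fell by less, with -0.25 (adjusted p = 0.0397), which turned to 0.18 with library totals and did not pass without any 1 of the 3 control libraries (adjusted p 0.0796 to 0.136). The NADPH-forming enzymes of the pentose phosphate route rose, G6pdx with 0.49 (adjusted p = 0.00195) and Pgd with 0.59 (adjusted p = 0.0208). Pgd did not pass without the first cisplatin library, where its log2 fold change was 0.43, the second cisplatin library or the second control library (adjusted p 0.0577 to 0.0777).

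The separate synthesis of fatty acids in mitochondria provides the chain from which lipoate is made. Of its 7 listed genes 6 could be tested, and all 6 fell with TMM, while 22.8% of all tested genes were lower. The other gene had at most 1 count in any library. The median of the 6 was -0.74 on the log2 scale, and with library totals 3 of them fell and all 6 stayed below 0. Acsf3, which makes malonyl-CoA in mitochondria, had 18.6, 18.8 and 20.3 CPM in cisplatin kidneys, against 38.3, 40.8 and 35.6 CPM in control kidneys. Its log2 fold change was -0.99 (edgeR adjusted p = 9.99e-06), that of Oxsm, the condensing enzyme, was -0.86 (adjusted p = 4.97e-05), that of Mecr, the enoyl reductase, was -0.86 (adjusted p = 8.32e-05) and that of Ndufab1, the acyl carrier protein, was -0.63 (adjusted p = 0.00147). Ndufab1 had -0.21 with library totals (adjusted p = 0.0845).

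Of 19 tested regulators of lipogenic genes 5 were lower (26.3%) and 4 higher (21.1%), close to the shares of all tested genes, with the median change at 0.04 on the log2 scale and 3 lower and 11 higher with library totals. Srebf1, a factor that switches on Fasn, Acaca, Scd1 and Elovl6 among other genes in liver, had 35.0, 29.4 and 25.4 CPM in cisplatin kidneys, against 19.3, 17.8 and 16.3 CPM in control kidneys. It rose without overlap, with a log2 fold change of 0.75 (edgeR adjusted p = 0.000589). Srebf2, which acts mainly on cholesterol genes, had 0.04 (adjusted p = 0.844), and Insig1, which holds these factors in the endoplasmic reticulum, rose with 0.40 (adjusted p = 0.0265). Insig1 did not pass without any 1 of the 3 control libraries, nor without the third cisplatin library, where its log2 fold change was 0.20 (adjusted p 0.0503 to 0.104).
Nr1h3, the oxysterol receptor LXR alpha that induces Srebf1 in liver, fell with -1.11 (adjusted p = 6.49e-06). Mlxipl, the carbohydrate-responsive factor ChREBP, fell with -0.52 (adjusted p = 0.00148), a call lost with library totals (-0.09, adjusted p = 0.577), and its partner Mlx fell with -0.70 (adjusted p = 0.000264). Usf2, an E-box factor, rose with 0.34 (adjusted p = 0.0281). Usf2 did not pass in DESeq2 (adjusted p = 0.0916), without the low-count filter (0.0506), or without the third cisplatin, the second control or the third control library (0.0654 to 0.14). Of the AMP-activated kinase, which inhibits acetyl-CoA carboxylase, the catalytic subunit gene Prkaa2 fell with -0.77 (adjusted p = 2.91e-05) and the subunit gene Prkab1 rose with 0.64 (adjusted p = 0.000603).

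Of 11 genes of triglyceride synthesis and lipid droplets, which use the fatty acids made, 4 fell (36.4%) and 1 rose (9.09%). Among all tested genes 22.8% were lower and 24.5% higher. The median change of the list was -0.06 on the log2 scale, and with library totals 1 gene was lower and 5 were higher. Gpam, the first acyltransferase of glycerolipid synthesis at mitochondria, fell with a log2 fold change of -1.33 (edgeR adjusted p = 6.39e-07). Dgat2, which makes triglyceride, fell with -0.66 (adjusted p = 0.000258), Lpin2, a phosphatidate phosphatase, with -0.30 (adjusted p = 0.0343, turning to 0.13 with library totals), and the droplet coat gene Plin5 with -0.64 (adjusted p = 0.0101). With library totals Dgat2 had -0.23 (adjusted p = 0.0893) and Plin5 -0.21 (adjusted p = 0.347), and neither passed. Lpin2 did not pass without the second cisplatin, the second control or the third control library (adjusted p 0.0739 to 0.168). The droplet coat gene Plin3 rose with 0.50 (adjusted p = 0.00189).

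**Figure D5:**
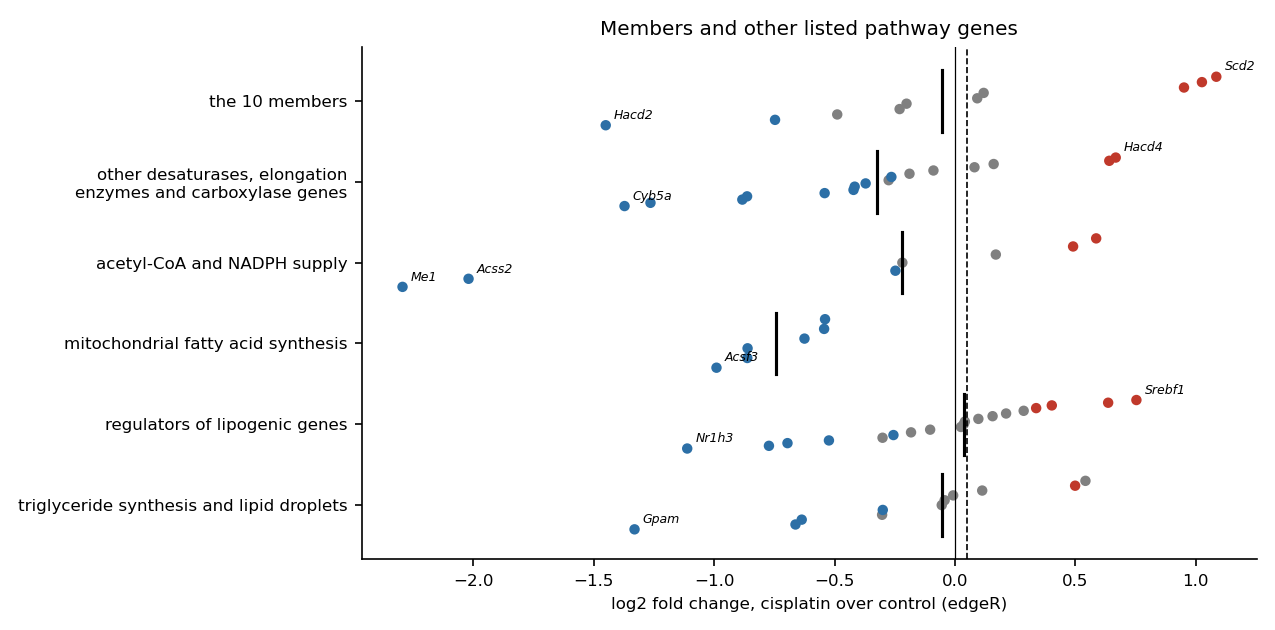
Log2 fold change, cisplatin over control, of each tested gene (dots) in the 10 members and in 5 lists of related genes; red marks genes called higher, blue genes called lower, grey genes that did not pass, black bars the median of each list, the solid line 0 and the dashed line the median of all tested genes. All dots of mitochondrial fatty acid synthesis lie below 0, while the members and the regulators lie on both sides.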

How the data were processed

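Total RNA of whole kidney was sequenced from 3 cisplatin mice and 3 saline control mice with a stranded kit. Per the labels and the methods, the authors trimmed read pairs with Cutadapt and aligned them to mm39 with STAR. They deposited raw counts per gene for each library, without normalization. Neither the settings of STAR nor the annotation release is given in the sources used here. The column of the transcript strand was used, which held 96.7% to 97.2% of the stranded counts. Pairs of no gene were kept out of library sizes and tests. They were 24.2% to 25.9% of all pairs in cisplatin kidneys and 21.2% to 21.9% in control kidneys, with pairs outside any gene at 6.09% to 9.32% in cisplatin kidneys and 4.63% to 4.86% in control kidneys.

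Counts were tested with edgeR 4.0.16 (quasi-likelihood F test with group as the only term, TMM factors, and filterByExpr with a minimum of 10 per library and 15 in all), with Benjamini-Hochberg adjustment over 15662 genes at 0.05. The study used DESeq2, and its model terms are not stated in the sources used here. Log2 CPM use a prior count of 2. TPM use the summed exon length of GENCODE vM39 and serve only to compare genes. Of the 56691 genes 56017 have a record there, and 31625 have the same versioned ID, which none of the members has, so lengths and coordinates may differ from those the authors used.

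The members and lists were chosen with earlier results of these data known. All members were named. Of each list up to 4 genes per direction with the smallest adjusted p were named, and Srebf1, Srebf2, Mlxipl, Nr1h3, Acly, Acacb, Hacd1, Hacd3, Hacd4, Elovl7, Tecr and Hsd17b12 whatever their values. Scd3, Scd4 and the fat markers were named after their values were seen. Of the marker lists not described in the results, 2 of 5 thick ascending limb genes were lower and 2 higher, and 4 of 6 collecting duct genes were higher. In addition, 2 of 6 endothelial genes were lower and 1 of 5 podocyte genes was higher. Among all tested genes 22.8% were lower and 24.5% higher. With library totals 0 thick ascending limb genes were lower and 2 higher, and 5 collecting duct genes were higher. Endothelial genes then turned to 0 lower and 2 higher, and 4 podocyte genes were higher. Of the adrenal genes only Star could be tested and did not pass.

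Other tests tried were DESeq2 1.42.0, limma-voom (limma 3.58.1), a threshold of 0.01 and a test against a 1.5-fold change. Scaling was varied with size factors of DESeq2, upper quartiles and totals. The filter was dropped or set to 10 counts in all libraries, strand was ignored, mitochondrial and the 20 highest genes were removed, a replicate block was added, and each library was left out in turn. The canonical transcript length and the family shares were added after seeing the data. The fit was tested on simulated counts of the 15662 genes, with 50 genes altered at each of 4 sizes. It recovered 3 at 1.25-fold, 15 at 1.5-fold, 41 at 2-fold and 48 at 4-fold, and 8 among 115 calls were false. Tables and figures were made with scipy 1.17.1, pandas 2.3.3, numpy 2.4.6 and matplotlib 3.10.9 under Python 3.11.15, and the fits ran in R 4.3.3.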

Additional observations from a re-analysis of the deposited data

How the results depend on the processing

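Scd2, Elovl6 and Hacd2 kept their call under all 18 alternatives. Scaling by library totals moved the median of all tested genes to a log2 fold change of 0.48, with 1375 genes lower and 8508 higher, 5 members higher, and 13 other listed genes lower and 25 higher. The log2 fold changes of Acaca (0.21), Elovl1 (0.22), Acly (0.18), Lpin2 (0.13), Acacb (0.17), Elovl7 (0.16) and Tecr (0.23) reversed there. Of these Tecr passed as higher (edgeR adjusted p = 0.029), as did Fads1 (0.56) and Elovl5 (0.51). Relative to the median of all genes, the members' values under both scalings differed little, with Elovl1 at -0.25 under each. Upper-quartile factors gave 2890 genes lower and 4774 higher, 37.7% lower against 48.2% with TMM, and ended the calls of Acly, Lpin2 and Elovl7. Acly also lost its call with either change of the low-count filter. The test against 1.5-fold gave 1114 lower and 1396 higher, 1 member lower, and 12 other listed genes lower and 0 higher (edgeR, with 1 higher at an unadjusted p under 0.05).

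Fasn passed without a low-count filter, with the replicate block, and without the first cisplatin or the third control library. It did not pass under the other 14 alternatives, and with library totals its log2 fold change was -0.04. Without the first cisplatin library 4 members were lower, Acaca being the other addition (log2 fold change -0.41), and Srebf2 turned to -0.13. Leaving out 1 library at a time gave Elovl5 -0.0013 to 0.15, while the log2 fold change of Hacd1 ran from -0.046 to 0.20, both lowest without the third cisplatin library. Over the same settings the log2 ratio of Scd1 to Scd2, cisplatin minus control, ran from -0.30 to 0.13, and members lower from 2 to 4. The cause of these shifts was not tested. Same-numbered libraries correlated at 0.133, 0.142 and 0.0997 in their deviations, each best with its own number, and the replicate block gave 3796 genes lower and 4087 higher. The labels do not say that a number pairs animals. With 3 mice per group changes of about 1.5-fold could be missed, as many were in the simulation. That simulation altered far fewer genes than the 3578 lower and 3841 higher called here. Its recovery rates may therefore differ from those in these data.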
